A study of Mus musculus with 6 samples.

Results

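Collagens, laminins and integrins were followed in mouse HT22 cells in which the transcription factor KLF13 was induced. The genes were taken by name from a count table of 29493 genes: collagen chains (Col, a number, a, a number), laminin chains (Lama, Lamb or Lamc with a number) and integrin chains (Itga or Itgb with a number or letter). The integrin-binding proteins Itgb1bp1, Itgb1bp2 and Itgb3bp and the integrin-like Itgbl1 were left out. This gave 68 genes, namely 38 collagen, 9 laminin and 21 integrin genes, and no measured value was used in the choice. Other genes of these families, such as Lama1, Lama4, Itga2 and Itga11, have no entry in the count table under these names. They could not be analysed here, and whether they had any counts is not known.

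HT22 is a neuronal line that derives from the mouse hippocampus. The line HT22-TR/TO-V5Klf13-1 carries a stable transgene for V5-tagged KLF13, a DNA-binding regulator from the Krüppel-like group of zinc-finger proteins, held off by the tet repressor until doxycycline is added. The Dox group was 3 samples of this line given 1 µg/ml doxycycline for 8 hours. The vehicle group was 3 samples of the same line given vehicle for 8 hours, so both groups carried the transgene. No sample had doxycycline without the transgene, so effects of KLF13 and of the drug cannot be told apart. Whether the 3 samples of each group were grown as separate cultures is not in the labels, and p-values here reflect only how far these samples vary, which may be technical. Total RNA was sequenced to between 38566798 and 52930384 counts per library.

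The extracellular matrix is a secreted scaffold to which cells attach. Collagens are trimers of alpha chains and form fibrils (types I, III, V), the network of basement membranes (type IV), beaded filaments (type VI) or fibril-associated molecules. Laminins are the other main basement membrane component, each an alpha, a beta and a gamma chain joined as a cross. Integrins are the receptors: an alpha and a beta chain pair at the cell surface, bind matrix proteins outside and link through adaptor proteins to the actin cytoskeleton inside. In neurons this contact guides neurite outgrowth and synapse maintenance. In what follows collagens and laminins are the ligands and integrins the receptors, although not every collagen binds an integrin.

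Levels are given as CPM, counts scaled by the TMM-normalised library size. Dox was compared with vehicle by edgeR's quasi-likelihood test over all genes, and a gene is said to have risen or fallen at a Benjamini-Hochberg adjusted p under 0.05. Klf13, the induced gene, had 205, 188 and 184 CPM in the Dox libraries, against 37.0, 36.1 and 39.1 CPM in the vehicle libraries (log2 fold change 2.36 ± 0.054 SE, adjusted p = 1.5e-06). Of 16 neuronal marker genes 9 were in the table, and 6 of these 9 were under 1 CPM. Their summed level was 19.7 to 20.2 CPM with Dox and 67.8 to 68.2 CPM with vehicle, most of it Tubb3, neuronal beta-tubulin, at 14.7 ± 0.410 CPM with Dox and 60.7 ± 0.210 CPM with vehicle (SD, n = 3 each). The sum thus mainly follows Tubb3. Of the 5 neuronal markers tested, 3 fell, 1 rose (log2 fold change 1.11) and 1 was not called. The 11 fibroblast markers that are not collagens summed to 3924 to 4146 CPM with Dox and 4321 to 4616 CPM with vehicle. Of these 11, Dcn, Lum and Postn averaged only 4.62, 0.0101 and 8.76 CPM over the 6 libraries, so the sum rests on other genes of the list. Of the 11 fibroblast markers tested, Col1a2 among them, 6 fell and 1 rose. The astrocyte list (7 of 8 genes in the table, 4 under 1 CPM) summed to 57.8 to 221 CPM with Dox and 74.9 to 205 CPM with vehicle. The microglia and leukocyte list (7 of 8, 4 under 1 CPM) summed to 30.5 to 32.5 CPM with Dox and 24.0 to 24.3 CPM with vehicle. Lists for oligodendrocytes (5 of 8 genes in the table), endothelium (5 of 8) and epithelium (3 of 8) stayed under 5 CPM in every library. They summed to 1.48 to 1.79, 3.76 to 4.91 and 0.871 to 1.44 CPM with Dox, against 2.20 to 3.05, 3.00 to 3.34 and 2.51 to 3.00 CPM with vehicle, with 4, 4 and 2 genes under 1 CPM. No gene of the whole count table was at 0 in all 6 libraries. Whether listed genes missing from it had any counts is therefore not known. The part of these markers in the results on matrix genes was not tested. In bulk RNA, fewer cells of a type and less RNA per cell cannot be told apart.

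Falls outnumbered rises among these genes. Of the 68, 47 passed the filter on low counts, and of these 47 tested genes 23 fell, 6 rose and 18 were not called. That is 48.9% lower and 12.8% higher, beside 28.8% lower and 25.9% higher among all 18067 genes tested, of which 54.7% were called in either direction. The median log2 fold change was -0.21 over the 47 genes and 0.018 over all genes tested. The Dox and vehicle libraries did not overlap in 31 of the 47, beside 64.0% of all genes tested. Better measured genes are called more often: of the 28 members averaging at least 10 CPM, a level chosen after the values were seen, 20 fell and 4 rose, beside 69.6% called, 36.8% lower and 32.8% higher among all 10133 such genes. A member that passed the filter through its higher group alone had to differ, so these counts describe the members that passed and not all 68. Only Itga3 and Itga6 fell at least 2-fold with a call, where 7.51% of all genes tested did so, and 0 members rose as much, beside 1.74% of all genes tested.

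**Figure D1:**
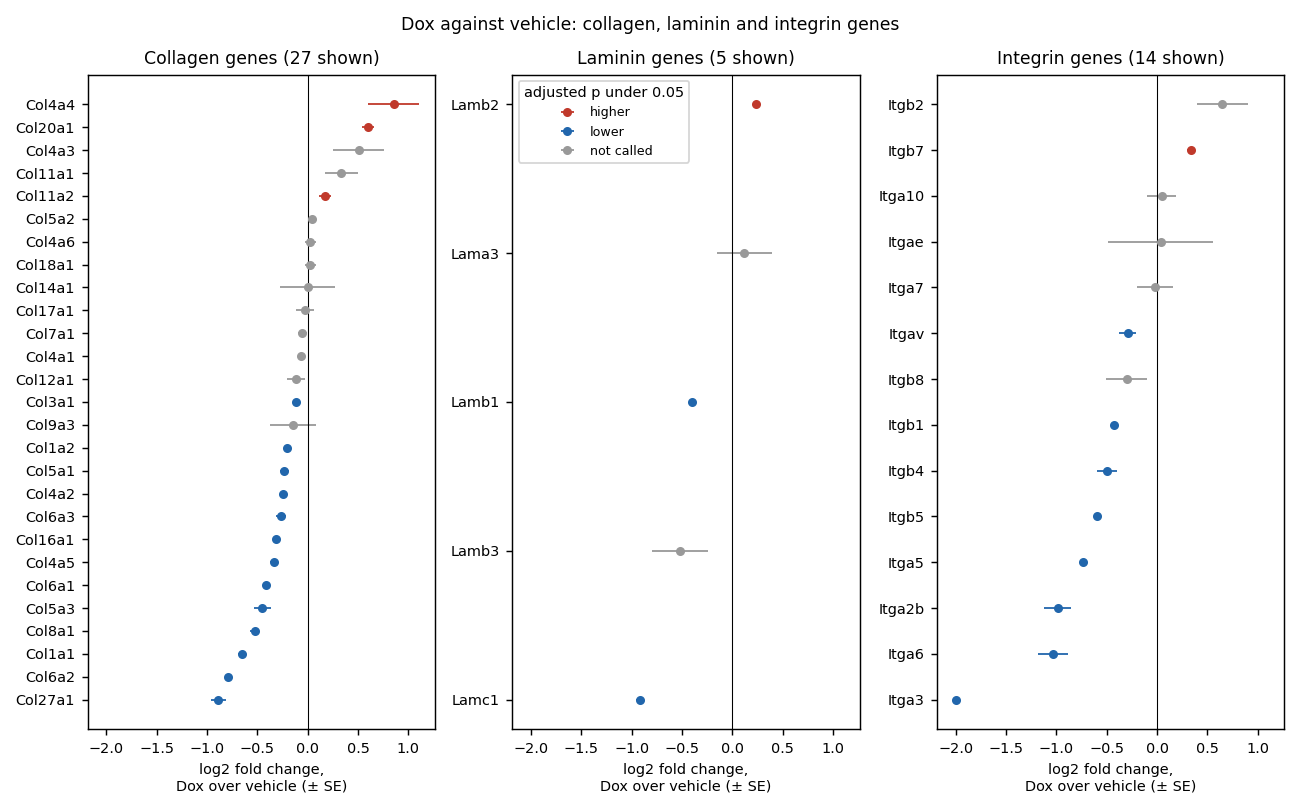
Log2 fold change of Dox over vehicle (x axis, ± SE) for tested genes of the collagen, laminin and integrin families (1 laminin gene is not drawn), sorted by value and coloured by call at an adjusted p under 0.05. Itga3 lies furthest to the left at -2.00, and of the genes drawn as called higher 3 are collagens, 1 a laminin and 1 an integrin.

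Ligands and receptors were then set side by side. Of 33 tested collagen and laminin genes 15 fell, 5 rose and 13 were not called, with a median log2 fold change of -0.12. Of 14 tested integrin genes 8 fell, 1 rose and 5 were not called, with a median of -0.36. Summed over all members, the ligand genes held 14622, 14985 and 14211 CPM in the Dox libraries, against 17168, 17896 and 17070 CPM in the vehicle libraries. The integrin genes held 1253, 1307 and 1262 CPM in the Dox libraries, against 1830.4, 1909 and 1843 CPM in the vehicle libraries. Both sums were lower in every Dox library, and the integrin sum by the larger share. Summed ligand CPM, not divided by transcript length, was thus 11.7, 11.5 and 11.3 times summed integrin CPM in the Dox libraries. In the vehicle libraries it was 9.38, 9.37 and 9.26 times, without overlap. Abundant genes weigh heavily in these sums. Itgb1 alone averaged 850 of 1274 integrin CPM with Dox and 1142 of 1861 CPM with vehicle. Col1a2 averaged 4387 of 14606 ligand CPM with Dox and 5069 of 17378 CPM with vehicle. The difference between the families was not tested. Matrix transcripts are long: the median longest transcript was 6119 bases for the ligand genes tested, 4165 for the integrins and 2442 for all genes tested. With an offset for transcript length 10 ligand genes were lower and 11 higher, and 7 integrins lower and 1 higher. The excess of falls among ligands was thus not seen with this offset. The offset was a smooth curve of these same log2 fold changes, over all genes tested, against length. It therefore also removes any difference between the groups that tracks length, and cannot tell a technical effect from one of treatment. The same offset gave 4832 genes lower and 5008 higher among all 18067 tested, against 5203 and 4687 without it. An offset for GC content was built in the same way and has the same limit. With it 11 ligand genes were lower and 8 higher, and 7 integrins lower and 1 higher, beside 5042 lower and 5064 higher among all genes tested. Upper-quartile scaling gave 4457 lower and 6246 higher among all genes tested, with 14 ligand genes lower and 6 higher, and 7 integrins lower and 2 higher.

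The integrin alpha chains held the largest changes. Itga3 encodes the alpha chain that pairs with beta 1 as a laminin receptor. It had 37.3, 37.0 and 36.0 CPM in the Dox libraries, against 148, 149.8 and 143 CPM in the vehicle libraries. Every Dox library lay far below every vehicle library (log2 fold change -2.00 ± 0.031 SE, adjusted p = 8.4e-07). The gene spans 95044474 to 95076801 of chromosome 11 (minus strand, GRCm38). In GENCODE M21 no other gene overlaps its exons by 50 bases or more. Itga6, the alpha chain of laminin receptors with beta 1 or beta 4, had 45.7, 64.7 and 44.9 CPM in the Dox libraries, against 99.0, 114 and 104 CPM in the vehicle libraries. The groups did not overlap, but Dox replicate 2 stood above the other Dox libraries (log2 fold change -1.03 ± 0.15 SE, adjusted p = 0.0013). Itga5, the alpha chain of the fibronectin receptor, had 93.5, 92.9 and 92.6 CPM in the Dox libraries, against 153, 158 and 153 CPM in the vehicle libraries. Its Dox libraries lay within 1 CPM of each other and well below the vehicle libraries (log2 fold change -0.73 ± 0.025 SE, adjusted p = 3.3e-06).

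Itgav, which pairs with several beta chains to bind RGD-containing matrix proteins, changed least among the abundant alpha chains. It had 93.3, 104 and 85.9 CPM in the Dox libraries, against 106, 125 and 116 CPM in the vehicle libraries. The highest Dox library lay just under the lowest vehicle library (log2 fold change -0.29 ± 0.087 SE, adjusted p = 0.028). That call was lost without Dox replicate 1 (adjusted p = 0.076) or 3 (0.072), without vehicle replicate 2 (0.082) or 3 (0.071), with upper-quartile scaling (0.078), with no filter on low counts (0.058) and with the length offset (0.33). Itgav also shares exonic sequence with Gm13684, and the strand setting of the counts is not given in the sources used here. Itga2b, the alpha IIb chain of platelets, was at a low level of 1.06, 1.11 and 1.42 CPM in the Dox libraries and 2.20, 2.50 and 2.43 CPM in the vehicle libraries. It fell by 0.99 ± 0.13 on the log2 scale (adjusted p = 9.3e-04). Itga10, a collagen-binding chain of cartilage, Itga7, a laminin-binding chain of muscle, and Itgae, the alpha E chain of lymphocytes, averaged 2.85, 1.12 and 0.353 CPM with Dox and 2.78, 1.14 and 0.338 CPM with vehicle. They were not called (log2 fold changes 0.044 ± 0.14, -0.020 ± 0.18 and 0.036 ± 0.52 SE). Thus 5 of 8 tested alpha chains fell. None rose in edgeR's test, where 0 also had an unadjusted p under 0.05 in that direction, and 0 were called higher by DESeq2.

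The balance among alpha chains differed between groups. Levels per kilobase of the longest transcript (CPM per kb) allow genes to be compared. On that scale, the vehicle level was 35.3 ± 0.740 for Itga5, 30.3 ± 0.675 for Itga3, 24.6 ± 1.83 for Itga6 and 16.4 ± 1.34 for Itgav (SD, n = 3). The Dox level was 21.2 ± 0.116 for Itga5, 13.4 ± 1.29 for Itgav, 12.01 ± 2.60 for Itga6 and 7.57 ± 0.141 for Itga3 (SD, n = 3), where Itgav and Itga6 do not differ beyond their spread. Itga3 made up 14.5, 13.0 and 14.5% of the summed per-length level of these 4 genes in the Dox libraries, against 29.5, 27.7 and 28.1% in the vehicle libraries. The share of Itgav was 25.0, 25.2 and 23.8% with Dox and 14.5, 15.9 and 15.7% with vehicle. The shares of Itga3 and Itgav did not overlap between groups, and those of Itga6 did (20.1 to 25.6% with Dox and 22.2 to 23.9% with vehicle). These shares do not depend on how libraries were scaled.

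Promoter windows of Itga3 and Itga5 are shown as those of abundant integrin genes with large and well separated falls. They run from 250 bases before to 50 after the RefSeq start (GRCm38.p6), 5′ to 3′ on the gene's strand. Capitals mark the letters CACCC or GGGCGG on either strand (GGGTG or CCGCCC in the printed one), the core of sites that Krüppel-like and SP factors can bind. The motifs can overlap each other. Itga3 has 2 RefSeq starts and the outer one is given, chr11:95076665-95076964 on the minus strand, with 3 matches to GGGCGG and 0 to CACCC. Itga5 is at chr15:103366742-103367041 on the minus strand, with 2 and 0.
Itga3: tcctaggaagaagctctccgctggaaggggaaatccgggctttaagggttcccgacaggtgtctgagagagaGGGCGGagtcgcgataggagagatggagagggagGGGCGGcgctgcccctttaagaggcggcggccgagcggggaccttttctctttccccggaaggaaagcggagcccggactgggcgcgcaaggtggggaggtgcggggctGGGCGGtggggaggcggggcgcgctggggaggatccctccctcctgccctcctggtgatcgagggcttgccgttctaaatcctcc
Itga5: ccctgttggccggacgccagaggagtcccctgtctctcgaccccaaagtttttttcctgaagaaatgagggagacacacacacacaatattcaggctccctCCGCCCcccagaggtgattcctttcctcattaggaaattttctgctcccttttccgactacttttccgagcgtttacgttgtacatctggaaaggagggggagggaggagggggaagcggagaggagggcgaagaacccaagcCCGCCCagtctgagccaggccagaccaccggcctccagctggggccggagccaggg

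Among beta chains the abundant ones fell and Itgb7 rose. Itgb1, the beta 1 chain shared by most matrix-binding integrins and by far the most abundant integrin message, had 833, 860.3 and 857 CPM in the Dox libraries, against 1125, 1164 and 1138 CPM in the vehicle libraries. The groups were well apart (log2 fold change -0.43 ± 0.023 SE, adjusted p = 1.6e-05). Itgb5, the beta 5 chain of the vitronectin receptor with alpha v, had 103, 103 and 99.5 CPM in the Dox libraries, against 158, 156 and 147 CPM in the vehicle libraries. It too was lower in every Dox library (log2 fold change -0.59 ± 0.035 SE, adjusted p = 2.2e-05). Itgb4, the partner of alpha 6 in hemidesmosomes, averaged 3.89 ± 0.459 CPM with Dox and 5.50 ± 0.251 CPM with vehicle (SD, n = 3 each) and fell by 0.50 ± 0.097 on the log2 scale (adjusted p = 0.0049). It shares exonic sequence with B230344G16Rik, and the call was lost, just, with the GC offset (adjusted p = 0.051).

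Itgb7 encodes the beta 7 chain of leukocyte homing receptors, which pairs with alpha 4 or alpha E. It had 34.3, 32.6 and 32.9 CPM in the Dox libraries, against 25.9, 26.6 and 26.7 CPM in the vehicle libraries. All Dox libraries lay above all vehicle libraries (log2 fold change 0.33 ± 0.039 SE, adjusted p = 4.4e-04), while its known partners Itga4 and Itgae were at or below 0.521 CPM in every library. With glmTreat, which tests for a change beyond 1.2-fold, the call of Itgb7 was just lost (adjusted p = 0.051). Itgb2, the beta 2 chain of leukocytes, had 2.14, 2.17 and 2.43 CPM with Dox and 1.83, 0.864 and 1.60 CPM with vehicle. The groups did not overlap but it was not called (log2 fold change 0.65 ± 0.26 SE, adjusted p = 0.073); it was called without vehicle replicate 1 (log2 fold change 0.85, adjusted p = 0.045), with upper-quartile scaling (0.74, adjusted p = 0.047) and, at a smaller size, without vehicle replicate 2 (0.39, adjusted p = 0.038). Itgb8, a partner of alpha v, averaged 0.908 CPM with Dox and 1.11 CPM with vehicle and was not called (log2 fold change -0.30 ± 0.20 SE). The promoter window of Itgb7, the only integrin gene called higher, lies at chr15:102231886-102232185 on the minus strand and holds 4 matches to CACCC and 0 to GGGCGG, marked as above.
Itgb7: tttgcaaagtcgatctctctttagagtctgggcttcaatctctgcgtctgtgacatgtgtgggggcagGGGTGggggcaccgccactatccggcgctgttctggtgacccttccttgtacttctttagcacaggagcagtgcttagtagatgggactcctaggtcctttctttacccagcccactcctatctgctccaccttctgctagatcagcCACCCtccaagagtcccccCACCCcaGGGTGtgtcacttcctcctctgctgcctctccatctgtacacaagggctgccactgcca

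Within a library, the messages of Itga3, Itga5 and Itga6 were lower relative to Itgb1 with Dox. The per-length ratio of Itga3 to Itgb1 was 0.0352, 0.0338 and 0.0330 in the Dox libraries, against 0.103, 0.101 and 0.0989 in the vehicle libraries. The ratio of Itga5 to Itgb1 was 0.0940 to 0.0978 with Dox and 0.117 to 0.118 with vehicle, and that of Itga6 was 0.0463 to 0.0666 and 0.0779 to 0.0870, again without overlap. The ratio of Itgav to Itgb1 overlapped, at 0.0542 to 0.0654 with Dox and 0.0510 to 0.0581 with vehicle.

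**Figure D2:**
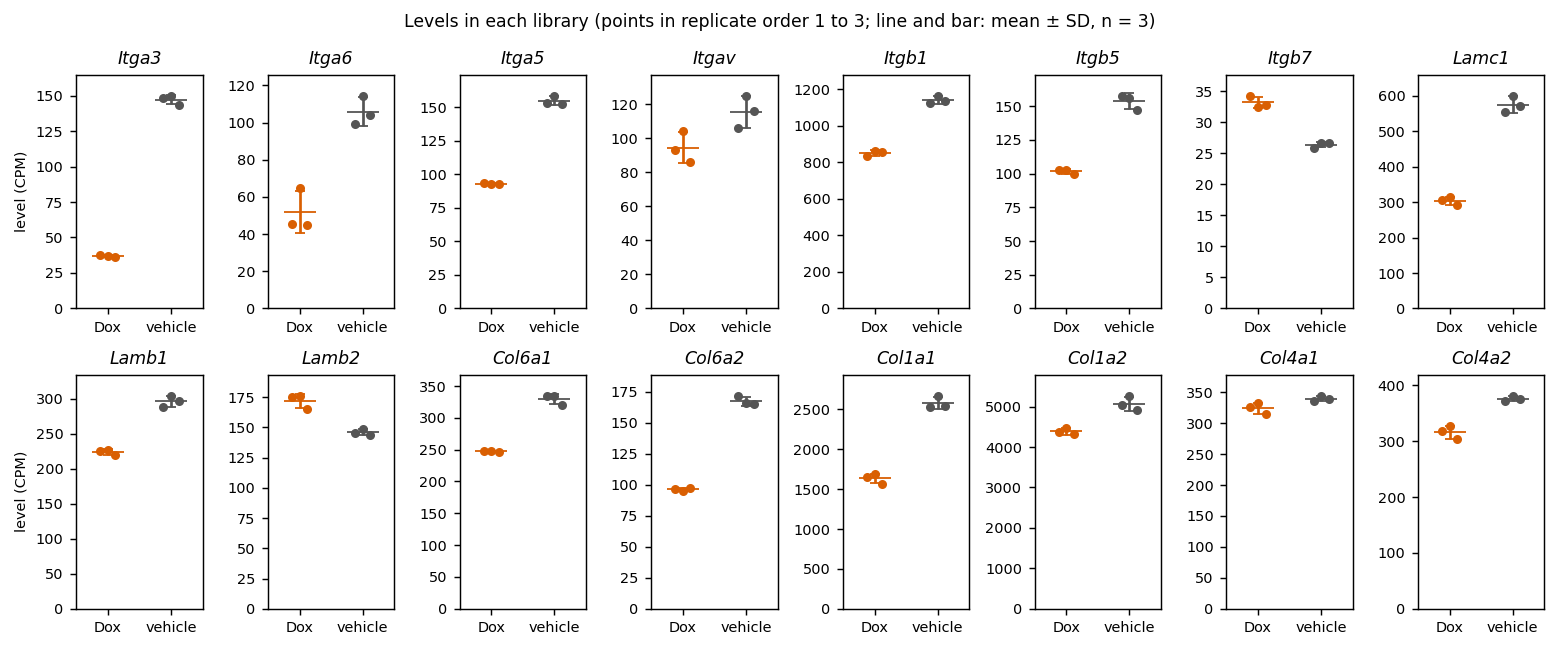
Level in CPM (y axes, from 0) of 16 integrin, laminin and collagen genes in each Dox and vehicle library, with points in replicate order and the mean ± SD (n = 3). Itga3, Itga5, Lamc1, Col6a2 and Col1a1 show groups far apart, while Itgb7 and Lamb2 lie higher with Dox and Col4a1 differs little.

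Laminin chains moved both ways. Lamc1, the gamma 1 chain of most laminins, had 305, 314 and 292 CPM in the Dox libraries, against 553, 599.8 and 572 CPM in the vehicle libraries. This was the largest fall among the laminin genes tested, with groups far apart (log2 fold change -0.92 ± 0.041 SE, adjusted p = 7.3e-06). Lamb1, the beta 1 chain, had 226, 227 and 219.9 CPM in the Dox libraries, against 289, 304 and 297 CPM in the vehicle libraries. It was lower in every Dox library by a smaller amount (log2 fold change -0.40 ± 0.028 SE, adjusted p = 4.1e-05). Lamb2, the beta 2 chain, which marks synaptic and kidney basement membranes, had 175, 176 and 165 CPM in the Dox libraries, against 146, 149 and 144 CPM in the vehicle libraries. It was higher in every Dox library (log2 fold change 0.24 ± 0.032 SE, adjusted p = 8.9e-04). With glmTreat this rise was not called (adjusted p = 0.81).

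Ratios between laminin chains in the same library also differed between groups. The per-length ratio of Lamb2 to Lamb1 was 0.795, 0.795 and 0.773 in the Dox libraries, against 0.519, 0.502 and 0.497 in the vehicle libraries. The ratio of Lamc1 to Lamb1, which both fell, was 1.02, 1.05 and 1.01 with Dox and 1.45, 1.498 and 1.46 with vehicle. In both ratios the groups were far apart. Laminin alpha chains hold the main binding sites for integrins, and the 3 alpha genes in the table were at low levels. Lama3 averaged 0.553 CPM with Dox and 0.504 CPM with vehicle and was not called (log2 fold change 0.12 ± 0.27 SE). Lama2 had 11 counts or fewer and Lama5 11 or fewer in each library, and neither was tested. Lamb3, a beta chain of epithelial laminin, averaged 0.540 CPM with Dox and 0.777 CPM with vehicle and was not called (log2 fold change -0.52 ± 0.28 SE). The promoter window of Lamb2, shown for comparison with those of the falling genes, lies at chr9:108479612-108479911 on the plus strand and holds 2 matches to CACCC, side by side, and 0 to GGGCGG.
Lamb2: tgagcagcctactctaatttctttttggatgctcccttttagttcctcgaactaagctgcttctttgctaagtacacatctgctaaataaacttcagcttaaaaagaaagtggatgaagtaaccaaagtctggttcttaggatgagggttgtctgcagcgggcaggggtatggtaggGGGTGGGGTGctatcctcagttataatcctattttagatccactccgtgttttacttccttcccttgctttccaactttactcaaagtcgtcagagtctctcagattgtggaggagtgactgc

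Fibrillar collagens held the most abundant messages of the group. Col1a1, Col1a2 and Col3a1 fell to unequal degrees, while Col5a2 was not called. Col1a2, the alpha 2 chain of type I collagen, had 4381, 4469 and 4311 CPM in the Dox libraries, against 5033, 5259 and 4916 CPM in the vehicle libraries. It was lower in every Dox library, but only by a log2 fold change of -0.21 ± 0.030 SE (adjusted p = 0.0013), a call that the length offset removed (adjusted p = 0.090). Col1a1, which supplies the other chain of type I collagen, had 1649, 1686 and 1571 CPM in the Dox libraries, against 2528, 2667 and 2545 CPM in the vehicle libraries. Its fall was larger (log2 fold change -0.66 ± 0.035 SE, adjusted p = 1.4e-05). The per-length ratio of Col1a2 to Col1a1 was 2.95, 2.94 and 3.04 in the Dox libraries, against 2.21, 2.19 and 2.14 in the vehicle libraries. Col3a1, the type III chain, had 2231, 2286 and 2174 CPM in the Dox libraries, against 2431, 2450.2 and 2386 CPM in the vehicle libraries (log2 fold change -0.12 ± 0.025 SE, adjusted p = 0.0063). That small fall was not called with upper-quartile scaling (adjusted p = 0.36), and with the length offset its direction turned (log2 fold change 0.025, adjusted p = 0.43).

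Type V collagen regulates fibril diameter. Its chain Col5a1 had 724, 754 and 689 CPM in the Dox libraries, against 831, 882 and 831 CPM in the vehicle libraries (log2 fold change -0.23 ± 0.041 SE, adjusted p = 0.0033). The call of Col5a1 was lost with the length offset (adjusted p = 0.65) and the GC offset (0.27). Col5a2 had 2232, 2291 and 2203 CPM in the Dox libraries, against 2148, 2238 and 2148 CPM in the vehicle libraries, so its groups overlapped. It was not called (log2 fold change 0.041 ± 0.026 SE, adjusted p = 0.23), but was called higher with upper-quartile scaling (0.14, adjusted p = 0.0022) and with the length offset (0.21, adjusted p = 5.5e-04). Col5a2 lies close to Col3a1 on chromosome 1, at 45374321 to 45503282 on the minus strand and 45311538 to 45349706 on the plus strand (GRCm38, GENCODE M21). Col5a3, the third type V chain, averaged 11.4 ± 0.988 CPM with Dox and 15.6 ± 1.13 CPM with vehicle (SD, n = 3 each) and fell by 0.45 ± 0.085 on the log2 scale (adjusted p = 0.0042), a call lost with the GC offset (adjusted p = 0.084). The per-length ratio of Col5a2 to Col5a1 was 3.86 to 4.06 with Dox and 3.22 to 3.28 with vehicle, without overlap. Of the type XI chains, which join type V in fibrils, Col11a2 averaged 8.35 ± 0.416 CPM with Dox and 7.40 ± 0.268 CPM with vehicle (SD, n = 3 each). Its rise was barely called (log2 fold change 0.17 ± 0.060 SE, adjusted p = 0.047), and not without Dox replicate 1 (adjusted p = 0.083) or 2 (0.12) or vehicle replicate 1 (0.12) or 3 (0.13). It was also lost with DESeq2's size factors (0.051), with the DESeq2 Wald test (0.25) and with no filter on low counts (0.096). Col11a1 averaged 1.79 CPM with Dox and 1.41 CPM with vehicle and was not called (log2 fold change 0.33 ± 0.16 SE), but was without vehicle replicate 3 (0.51, adjusted p = 0.030) and with the length offset (0.53, adjusted p = 0.033).

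Type VI collagen forms filaments around cells from the products of Col6a1, Col6a2 and Col6a3, and all 3 genes fell. Col6a2 had 96.6, 95.3 and 97.7 CPM in the Dox libraries, against 171, 166 and 165 CPM in the vehicle libraries. This was the most separate of the 3 (log2 fold change -0.79 ± 0.026 SE, adjusted p = 3.0e-06). Col6a1, also on chromosome 10, had 247, 249 and 247 CPM with Dox and 334, 334 and 320.0 CPM with vehicle (log2 fold change -0.41 ± 0.024 SE, adjusted p = 2.2e-05). Col6a3 had 1051, 1101 and 977 CPM with Dox and 1217, 1308 and 1227 CPM with vehicle (log2 fold change -0.26 ± 0.051 SE, adjusted p = 0.0047), and its call was lost with the length offset (adjusted p = 0.66). All 3 were lower in every Dox library. The per-length ratio of Col6a1 to Col6a2 was 2.90, 2.96 and 2.86 in the Dox libraries, against 2.21, 2.28 and 2.20 in the vehicle libraries.

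Type IV collagen builds the network of basement membranes, and its genes lie in pairs that start next to each other on opposite strands. Col4a2 had 318, 327 and 304 CPM in the Dox libraries, against 372, 381 and 375 CPM in the vehicle libraries (log2 fold change -0.25 ± 0.031 SE, adjusted p = 6.1e-04). Col4a1 had 326, 332 and 314 CPM in the Dox libraries, against 336, 344 and 339.7 CPM in the vehicle libraries, just without overlap. It was not called (log2 fold change -0.068 ± 0.027 SE, adjusted p = 0.071). Without Dox replicate 2 Col4a1 was called lower (-0.085, adjusted p = 0.043), whereas with the length offset (0.10, adjusted p = 0.016) and the GC offset (0.093, adjusted p = 0.024) it was called higher. The call of Col4a2 was lost with the length offset (adjusted p = 0.067) and the GC offset (0.68). The per-length ratio of Col4a1 to Col4a2, 1.00, 0.989 and 1.01 in the Dox libraries and 0.880, 0.880 and 0.882 in the vehicle libraries, was without overlap, so the paired genes changed unequally.

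The starts of Col4a1 and Col4a2 lie 21 bases apart in RefSeq, and their promoter windows share 78 bases. They are shown as the shared start region of a pair whose members changed unequally. Col4a1 is at chr8:11312777-11313076 on the minus strand, with 1 match to CACCC and 1 to GGGCGG. Col4a2 is at chr8:11312555-11312854 on the plus strand, with 1 and 3. Capitals mark both motifs as above, and the match nearest the end of the Col4a1 window lies in the shared bases and so is also 1 of those in the Col4a2 window.
Col4a1: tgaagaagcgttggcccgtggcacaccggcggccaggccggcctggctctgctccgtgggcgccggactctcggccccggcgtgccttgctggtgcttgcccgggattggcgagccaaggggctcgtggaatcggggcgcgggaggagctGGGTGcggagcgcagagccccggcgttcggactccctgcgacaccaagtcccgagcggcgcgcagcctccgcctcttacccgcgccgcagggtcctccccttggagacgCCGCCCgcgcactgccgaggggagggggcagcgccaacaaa
Col4a2: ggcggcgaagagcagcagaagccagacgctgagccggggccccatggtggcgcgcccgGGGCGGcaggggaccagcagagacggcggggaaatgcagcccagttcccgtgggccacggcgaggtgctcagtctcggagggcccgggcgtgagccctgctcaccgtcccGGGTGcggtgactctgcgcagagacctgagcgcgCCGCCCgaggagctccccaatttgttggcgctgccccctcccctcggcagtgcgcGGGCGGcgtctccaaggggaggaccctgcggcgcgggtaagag

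The X-linked pair also changed unequally. Col4a5 had 148, 148 and 145 CPM in the Dox libraries, against 178, 195 and 185 CPM in the vehicle libraries (log2 fold change -0.34 ± 0.036 SE, adjusted p = 3.0e-04). Col4a6, whose RefSeq start lies 1343 bases away on the other strand, had 89.1, 90.4 and 80.3 CPM with Dox and 83.8, 88.0 and 83.3 CPM with vehicle. These overlapped and it was not called (log2 fold change 0.026 ± 0.052 SE, adjusted p = 0.71), except with the length offset (0.20, adjusted p = 0.018). Their per-length ratio was 1.69, 1.67 and 1.83 with Dox and 2.17, 2.25 and 2.26 with vehicle. The third pair was near the lower limit of measurement. Col4a4 had 22, 23 and 23 counts in the Dox libraries and 8, 9 and 19 in the vehicle libraries, 0.517, 0.466 and 0.494 CPM against 0.212, 0.216 and 0.366 CPM. It was called higher (log2 fold change 0.85 ± 0.25 SE, adjusted p = 0.029), but not without Dox replicate 1 (0.082), 2 (0.063) or 3 (0.074), vehicle replicate 1 (0.081) or 2 (0.086) or with the DESeq2 Wald test (0.20). Col4a3 averaged 0.894 CPM with Dox and 0.635 CPM with vehicle and was not called (log2 fold change 0.51 ± 0.25 SE).

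**Figure D3:**
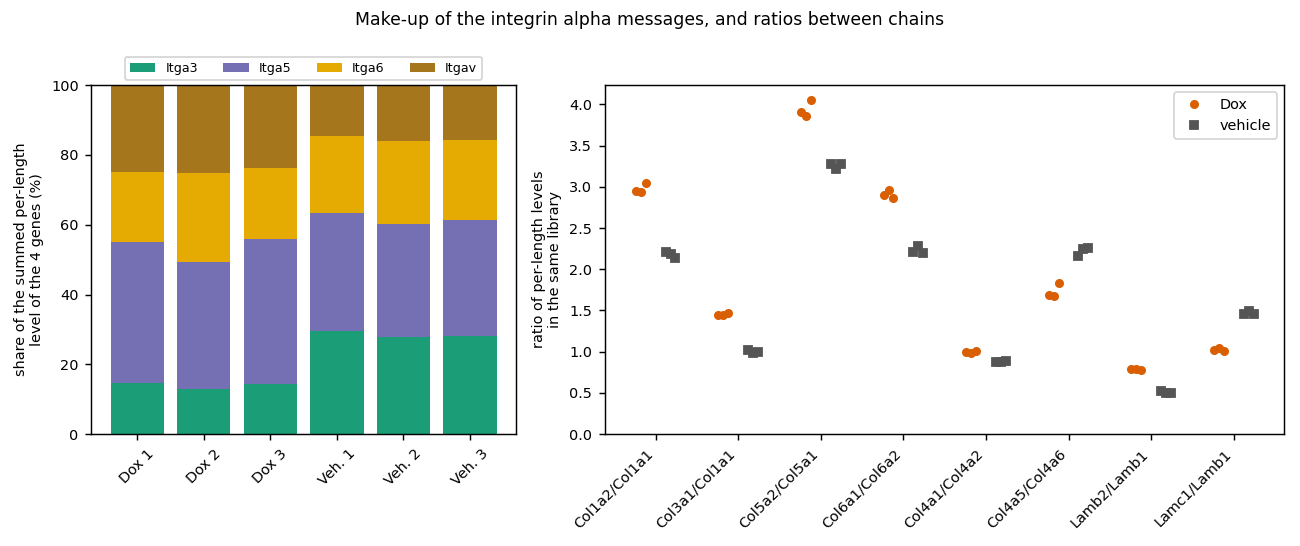
Left, the share (%) that each of Itga3, Itga5, Itga6 and Itgav takes of their summed per-length level in each library, with Itga3 at 13.0 to 14.5% with Dox and 27.7 to 29.5% with vehicle. Right, ratios of per-length levels between chosen collagen or laminin chains in the same library (circles Dox, squares vehicle). None of the ratios drawn overlap between groups, but they were chosen after the values were seen. The ratio of Itgav to Itgb1, which overlaps, is not drawn.

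The remaining collagens differed in level over a wide range. Of the fibril-associated and network types, Col16a1 had 189.9, 194 and 184 CPM in the Dox libraries, against 238, 233 and 236 CPM in the vehicle libraries (log2 fold change -0.32 ± 0.027 SE, adjusted p = 1.1e-04). Its call was lost with the GC offset (-0.070, adjusted p = 0.066). Col8a1, a short-chain collagen of vessel walls and cornea, had 127, 134 and 131 CPM in the Dox libraries, against 177, 192 and 195 CPM in the vehicle libraries (log2 fold change -0.53 ± 0.044 SE, adjusted p = 9.4e-05). Both were lower in every Dox library. Col27a1, a fibrillar collagen of cartilage, had 1.95, 2.09 and 2.08 CPM with Dox and 3.87, 3.84 and 3.63 CPM with vehicle (log2 fold change -0.89 ± 0.070 SE, adjusted p = 7.4e-05). It had the largest fall among the collagens called, at a low level. Col20a1, a fibril-associated collagen, had 13.2, 12.4 and 12.1 CPM with Dox and 7.98, 8.67 and 8.24 CPM with vehicle. It was higher in every Dox library (log2 fold change 0.60 ± 0.057 SE, adjusted p = 1.8e-04), and was the one ligand gene still called higher by glmTreat against 1.2-fold. Col20a1 shares exonic sequence with BX649560.1, so part of its counts may belong to that gene.

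Col7a1, the anchoring fibril collagen of skin, averaged 24.8 ± 0.811 CPM with Dox and 25.7 ± 0.841 CPM with vehicle (SD, n = 3 each) and was not called (log2 fold change -0.054 ± 0.046 SE). It was called higher with the length offset (0.17, adjusted p = 0.022) and the GC offset (0.19, adjusted p = 0.012). Col18a1, a basement membrane collagen and the source of endostatin, averaged 7.24 CPM with Dox and 7.12 CPM with vehicle and was not called (log2 fold change 0.025 ± 0.055 SE), but was called higher with the length offset (0.17, adjusted p = 0.039) and the GC offset (0.26, adjusted p = 0.0070). Col17a1, a hemidesmosome collagen, averaged 5.74 CPM with Dox and 5.85 CPM with vehicle and was not called. Col9a3, Col12a1 and Col14a1, chains of fibril-associated collagens, lay between 0.491 and 1.92 CPM on average in either group and were not called, with log2 fold changes of -0.15 ± 0.23, -0.12 ± 0.093 and -0.0011 ± 0.27 SE.

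Exonic sequence is also shared by Col3a1 with Gm47302, by Col5a1 with 2810430I11Rik and Gm13372, by Col4a3 with C430014B12Rik, by Col9a3 with Tcfl5, by Itga10 with Gm42957 and by Lama3 with Gm29200.

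A further 21 of the 68 genes did not pass the filter on low counts and have no test: 11 collagens, 3 laminins and 7 integrins. No library held more than 17 counts of any of them, and they averaged at most 0.197 CPM. A gene with 0 counts in a library could still hold up to 3 counts, which is 0.0579 to 0.0795 CPM depending on the library, for counting error only. Col28a1 had 5, 5 and 11 counts in the Dox libraries and 0 in each vehicle library, and Col23a1 had 10, 8 and 11 counts with Dox and 0, 4 and 3 with vehicle. The collagen receptor chain Itga1 had 0 counts in each Dox library and 5, 2 and 0 in the vehicle libraries. Itga4, Itga8, Itgad, Itgam, Itgb2l and Itgb3 likewise had 14 counts or fewer in each library.

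Genes that work with these ligands and receptors were followed in lists by role. Integrin adaptors link integrins to actin and to signalling. Their list here also holds the membrane proteins Cd9, Cd81, Cd151 and Cav1 and the integrin-binding Itgb1bp1. Of 52 tested genes of this list 38 fell, 3 rose and 11 were not called, with a median log2 fold change of -0.52. Git1, a scaffold of focal adhesion turnover, averaged 23.0 ± 0.571 CPM with Dox and 98.4 ± 2.12 CPM with vehicle (SD, n = 3 each) and fell by 2.097 ± 0.034 on the log2 scale (adjusted p = 8.4e-07). Kank2, which binds talin, averaged 26.9 ± 0.233 CPM with Dox and 97.8 ± 2.00 CPM with vehicle, and Vasp, an actin regulator of focal adhesions, 20.6 ± 0.436 CPM and 73.9 ± 0.420 CPM (SD, n = 3 each). Their log2 fold changes were -1.86 ± 0.030 and -1.84 ± 0.031 (SE, adjusted p = 8.4e-07 for both). The core adaptors were uneven: Fermt2 (kindlin-2), an activator of integrins, fell by 1.70 ± 0.041 and Tln1 (talin-1), another activator, by 0.52 ± 0.037 on the log2 scale. Tln2 (talin-2) rose by 0.14 ± 0.037, and Ilk, a pseudokinase that binds beta chains, was not called (log2 fold change 0.0038 ± 0.045 SE). Tln1 shares exonic sequence with Creb3, and Ilk with Rrp8 and Taf10.

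Of 19 other matrix receptors tested, 12 fell, 3 rose and 4 were not called (median log2 fold change -0.29). Dag1, dystroglycan, a laminin receptor outside the integrin family, averaged 95.2 ± 1.75 CPM with Dox and 192 ± 4.36 CPM with vehicle (SD, n = 3 each), a log2 fold change of -1.02 ± 0.028 SE (adjusted p = 1.9e-06). Sdc1, the proteoglycan syndecan-1, fell by 1.83 ± 0.093 and Antxr2, a receptor that binds laminin and type IV collagen, by 1.16 ± 0.043 on the log2 scale. The collagen receptor kinases split: Ddr1 fell by 1.48 ± 0.080, while Ddr2 rose by 0.18 ± 0.039 on the log2 scale. Ddr1 overlaps Gm4577 in its exons and Ddr2 overlaps 3110045C21Rik.

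Of 25 other matrix proteins tested, 14 fell, 3 rose and 8 were not called (median log2 fold change -0.31). Agrn, agrin, averaged 51.1 ± 1.65 CPM with Dox and 87.8 ± 4.03 CPM with vehicle (SD, n = 3 each), a log2 fold change of -0.78 ± 0.044 SE (adjusted p = 1.8e-05). Emilin1, an elastic fibre glycoprotein, fell by 1.58 ± 0.10 and Prelp, a leucine-rich proteoglycan, by 1.05 ± 0.061 on the log2 scale. Prelp shares exonic sequence with Gm15851. Among basement membrane linkers Nid1 (nidogen-1), which overlaps Gm48682, fell by 0.59 ± 0.040 and Hspg2 (perlecan) by 0.64 ± 0.083 on the log2 scale.

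Of 27 collagen processing genes tested, 16 fell, 4 rose and 7 were not called (median log2 fold change -0.17). Crtap, P3h4 and Fkbp10, which act on procollagen in the endoplasmic reticulum, fell by 0.85 ± 0.039, 0.56 ± 0.027 and 0.45 ± 0.024 on the log2 scale (adjusted p = 8.6e-06, 9.4e-06 and 1.5e-05). Fkbp10 shares exonic sequence with Nt5c3b. Lox, the collagen crosslinking oxidase, averaged 763 ± 14.0 CPM with Dox and 1142 ± 51.5 CPM with vehicle (SD, n = 3 each) and fell by 0.58 ± 0.036. Serpinh1, the collagen chaperone HSP47, had 493, 872 and 828 CPM in the Dox libraries, against 551, 499 and 507 CPM in the vehicle libraries, so that Dox replicate 1 lay with the vehicle libraries. It was not called (log2 fold change 0.49 ± 0.21 SE, adjusted p = 0.087). Of 26 matrix proteases and inhibitors tested, 16 fell, 4 rose and 6 were not called (median log2 fold change -0.36). Mmp11, a matrix metalloprotease, averaged 6.15 ± 0.146 CPM with Dox and 40.3 ± 1.92 CPM with vehicle (SD, n = 3 each), a log2 fold change of -2.71 ± 0.054 SE (adjusted p = 9.9e-07). Adam15, a disintegrin protease, and Timp3, a metalloprotease inhibitor, fell by 0.98 ± 0.040 and 0.97 ± 0.040 on the log2 scale. Mmp11, Adam15 and Timp3 share exonic sequence with Chchd10, 4731419I09Rik and Syn3. All 5 lists had a larger share lower than the 28.8% of all genes tested, a description and not a test. Many of their genes are well measured, and such genes are called more often. Among all genes averaging at least 10 CPM 36.8% were lower and 69.6% were called. The lists had 56.0 to 73.1% lower and 68.0 to 78.9% called in either direction.

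**Figure D4:**
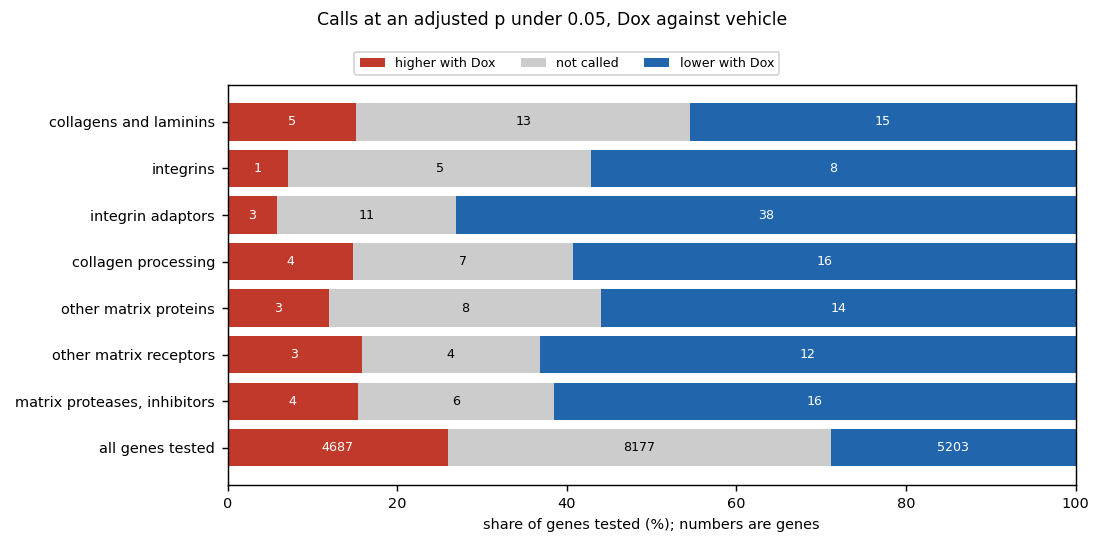
Share of tested genes (x axis, %) called higher, not called and called lower with Dox at an adjusted p under 0.05, with the number of genes in each bar. Integrin adaptors have 38 of 52 genes lower, and all genes tested have 5203 of 18067.

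Promoter windows were available for 33 of the 47 tested members and 10219 of all genes tested. The letters GGGCGG, on either strand, stood in 15 of 19 windows of members that fell (78.9%), in 1 of 5 of those that rose and in 5 of 9 of those not called. Among all genes tested they stood in 75.6% of the windows of genes that fell, in 56.0% of genes that rose and in 62.8% overall. CACCC stood in 12 of 19, 4 of 5 and 8 of 9 windows of members that fell, rose and were not called, beside 67.6% of all genes that fell, 56.6% of those that rose and 62.1% overall. The members that fell thus lay near the share of all falling genes for both motifs. In all 32851 windows of the table, of 300 bases each, 35.7% hold GGGCGG and 57.5% CACCC. A match is a run of letters and no measure of binding.

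In the authors' deposited table of the same comparison, 27 of the 68 genes are called, 23 lower and 4 higher, where 40.3% of the genes with an adjusted p are called. The 68 include genes without an adjusted p there, such as Itga1, Itga4 and Lama2. The share of 27 in 68 and the 40.3% therefore do not have the same base. The 27 calls of the authors' deposited table are all among the 29 made here, in the same direction. The authors' deposited table gives log2 fold changes of -1.99 for Itga3, -0.92 for Lamc1 and 0.24 for Lamb2.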

How the data were processed

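RNA of 3 Dox and 3 vehicle samples was sequenced. FastQC 0.11.3, HISAT2 2.1.0, StringTie 1.3.3, DESeq2 and the build GRCm38 appear in the submitters' processing notes with no role stated. For annotation, strand setting and multi-mapping, nothing is given in the sources used. The authors deposited whole-number counts per gene symbol, not normalized. Their comparison table holds, per the file headers, a mean signal over libraries after size-factor normalization, a log2 fold change, its error and test statistic (score columns), and p-values.

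Columns were matched to samples by the labels' descriptions. Genes passing filterByExpr (18067) were scaled by TMM and tested with edgeR 4.0.16 (with limma 3.58.1 in R 4.3.3), with group as the sole term and all 6 libraries in the fit, adjusted by Benjamini-Hochberg over all genes. The SE is the size of the log2 fold change divided by the square root of its F value. The fit was also run on simulated counts with the dispersion of the fit itself. Far fewer genes changed in them than were called here, so that run cannot show how scaling or error rates hold in these data. Transcript lengths, positions and exonic overlaps, counted from 50 shared bases, come from GENCODE M21, which may differ from the authors' annotation. Promoters come from RefSeq GRCm38.p6. Replicates of a group were not repeats of 1 library (chi-square per degree of freedom 12.1 to 15.1).

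The values of 1 laminin gene are counted but not reported here. Members and lists were chosen with earlier results of these data known. Values per library are given for Klf13, the 12 most abundant members, up to 10 of the largest falls and rises among called members without overlap, and the chains that pair with them. Of each partner list (integrin adaptors, other matrix receptors, other matrix proteins, collagen processing, proteases and inhibitors) the 3 called genes of smallest p are named. Fermt2, Tln1, Tln2, Ilk, Ddr1, Ddr2, Nid1, Hspg2, Lox, Serpinh1 and Tubb3 were named after their values were seen, and the within-library ratios were likewise chosen then. Alternatives were DESeq2 1.42.0 (size factors, Wald test), upper-quartile scaling, limma-voom, no filter, a mean of at least 5 CPM, an adjusted p under 0.01, glmTreat at 1.2-fold, a replicate block, offsets for transcript length and GC content, and leaving out each library.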

Additional observations from a re-analysis of the deposited data

How the results depend on the processing

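Of the 29 members called, 15 kept their call and direction in each of the 17 alternatives in which they were tested, among them Itga3, Itga6, Itga5, Itgb1, Lamc1, Lamb1, Col1a1 and Col6a2, and 14 lost the call, or turned, in at least 1. Over the alternatives 10 to 16 ligand genes were lower, against 15, and 6 to 8 integrins, against 8. The 6 integrins were of only 7 tested at a mean of at least 5 CPM, where 14 of 24 ligand genes were lower. The share called among all genes tested was 54.7% of 18067 as reported. It was 30.2% of 29431 by DESeq2's Wald test and 31.6% of 29493 with no filter on low counts. Both of these include low-count genes that the reported test left out, so they do not have its base. The share was 43.0% at an adjusted p under 0.01, 70.9% at a mean of at least 5 CPM and 48.6 to 50.4% without 1 library. Ligand genes called higher, 5 as reported, were 3 by DESeq2's Wald test, 3 when the adjusted p had to be under 0.01, 1 with glmTreat at 1.2-fold, 11 with the length offset, 8 with the GC offset, and 3 to 5 without 1 library, with the 3 reached without Dox replicate 1 or Dox replicate 2. Integrins called higher, 1 as reported, were 2 with upper-quartile scaling, 0 with glmTreat (1 at an unadjusted p under 0.05), and 1 to 2 without 1 library, with the 2 reached without vehicle replicate 1 or vehicle replicate 2. Under glmTreat 10 collagen processing genes were called, against 20, and 11 other matrix proteins, against 17, while the share called among all genes was 33.4%, against 54.7%. The length offset turned Col3a1 (0.025), Col4a1 (0.10) and Col7a1 (0.17), and the GC offset turned Col4a1 (0.093) and Col7a1 (0.19). The cause of these changes was not tested.

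Same-numbered libraries deviated from their group means with correlations of 0.069, 0.052 and -0.094 across 14635 genes, and samples were therefore treated as unpaired. With a replicate block 3 ligand genes were called higher, against 5: Col11a2 (adjusted p = 0.0503) and Col4a4 (0.051) were not called. Members under 1 CPM rest on few counts, and their differences are the least precise.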
